A study of Drosophila melanogaster with 2 samples.

Results

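Of the 3854 autosomal peaks in a pooled list of 4350 peaks of the transcription factor kay, 177 had a noncoding RNA gene at their nearest promoter. A peak is a stretch of genome listed as enriched in chromatin immunoprecipitation followed by sequencing (ChIP-seq), and its summit is its highest point. The pooled list is labelled by the authors as holding both peaks and background, so an entry in it is not by itself a binding site. A peak was counted when its summit lay on 2L, 2R, 3L, 3R or 4, within 500 bp of an annotated start, and the nearest start belonged to a gene that codes for no protein. Transposable elements were left out. Neither the height of a peak nor its sequence entered this choice.

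The study used whole adult male Drosophila melanogaster of the strain kay-GFP, of unknown age, which carried a transgene for kay with GFP, a green fluorescent protein, fused to its C-terminus. An anti-GFP antibody recovered the tagged protein from chromatin sheared to between 200 and 800 bp. There was 1 group with 2 biological replicates, numbered 1 and 3 in the labels, and no control library was analysed here. All samples came from 1 transgenic line and from all tissues of the fly together, so a peak may come from any of them.

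In Drosophila, Fos is encoded by kay, and with Jra, the Jun of the fly, it forms the leucine zipper dimer AP-1, which acts in stress responses, wound healing and epithelial movement. Noncoding genes differ in how they are read: RNA polymerase II makes long noncoding RNAs and most microRNA precursors, while RNA polymerase III makes transfer RNAs (tRNAs) from promoter elements inside the gene. Small nucleolar RNAs (snoRNAs) guide modification of ribosomal RNA and, in the fly, are mostly cut from introns of other transcripts. The annotated start of a tRNA, snoRNA or microRNA gene is therefore the end of a short processed or precursor RNA, which for a microRNA or snoRNA can lie far from the promoter of the transcript that holds it.

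The 177 peaks lay at 157 distinct genes. Long noncoding RNA genes were nearest to 92 peaks, tRNA genes to 37, antisense RNA genes to 26, microRNA genes to 8, snoRNA genes to 8, pseudogenes to 5 and RNaseMRP:RNA, the RNA part of an enzyme that processes ribosomal RNA, to 1. The sequences that follow are shown because they carry the factor's own site, a second promoter motif, or the gene body beside the highest peaks. Sequences are from the RefSeq copy of the Release 6 genome (dm6), 5′ to 3′.

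The AP-1 site is TGACTCA, which reads TGAGTCA on the other strand. The 7 stretches with it that are shown are on the + strand, with the site in capitals and 20 bases on either side. They are chr3L:16613132-16613178 (asRNA:CR45865), chr2L:20417943-20417989 (snoRNA:Psi18S-525a), chr2L:11971342-11971388 (lncRNA:CR43314), chr3R:5264054-5264100 (lncRNA:CR45793), chr3R:25493642-25493688 (asRNA:CR44179), chr3R:12370183-12370229 (lncRNA:CR46015) and chr3L:1401612-1401658 (tRNA:Glu-CTC-3-9).
asRNA:CR45865: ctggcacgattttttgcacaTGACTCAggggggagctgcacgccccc
snoRNA:Psi18S-525a: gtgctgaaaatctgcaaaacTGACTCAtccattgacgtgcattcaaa
lncRNA:CR43314: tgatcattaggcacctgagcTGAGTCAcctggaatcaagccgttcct
lncRNA:CR45793: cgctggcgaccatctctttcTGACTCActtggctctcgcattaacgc
asRNA:CR44179: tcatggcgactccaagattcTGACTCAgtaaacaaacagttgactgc
lncRNA:CR46015: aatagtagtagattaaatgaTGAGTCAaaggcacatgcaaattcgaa
tRNA:Glu-CTC-3-9: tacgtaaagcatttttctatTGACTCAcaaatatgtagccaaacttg

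The GAGA site, GAGAGAG, or CTCTCTC on the other strand, is bound by the GAGA factor, Trl, at many fly promoters. It is shown in capitals on the + strand at the promoter of lncRNA:Hsromega (chr3R:21296012-21296212, centred on the summit), in the intron of puc (lncRNA:CR44331, chr3R:8114112-8114158) and at lncRNA:CR42719 (chr3L:616890-616936).
lncRNA:Hsromega: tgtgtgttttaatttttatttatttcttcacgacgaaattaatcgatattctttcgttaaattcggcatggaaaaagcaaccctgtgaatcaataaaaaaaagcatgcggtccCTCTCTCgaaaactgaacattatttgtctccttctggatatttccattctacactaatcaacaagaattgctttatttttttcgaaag
lncRNA:CR44331: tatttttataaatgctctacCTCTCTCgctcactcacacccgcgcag
lncRNA:CR42719: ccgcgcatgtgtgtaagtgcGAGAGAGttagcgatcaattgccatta

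The genes beside the highest tRNA peaks outside the second chromosome are shown on the − strand, with the annotated tRNA gene in capitals: tRNA:Gln-TTG-1-3 (chr3R:26947472-26947601), a glutamine tRNA, and tRNA:Tyr-GTA-1-8 (chr3R:8669065-8669339), a tyrosine tRNA whose gene holds a short intron. The summit lies downstream of the start of the first gene, just past its end, and in the lower-case stretch upstream of the second. Neither gene holds the letters GTTCGANTC, a strict form of the core of the internal promoter element called the B box, on either strand.
tRNA:Gln-TTG-1-3: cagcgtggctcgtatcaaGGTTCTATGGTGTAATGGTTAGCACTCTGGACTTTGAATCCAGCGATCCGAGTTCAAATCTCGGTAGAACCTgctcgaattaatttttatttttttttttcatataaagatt
tRNA:Tyr-GTA-1-8: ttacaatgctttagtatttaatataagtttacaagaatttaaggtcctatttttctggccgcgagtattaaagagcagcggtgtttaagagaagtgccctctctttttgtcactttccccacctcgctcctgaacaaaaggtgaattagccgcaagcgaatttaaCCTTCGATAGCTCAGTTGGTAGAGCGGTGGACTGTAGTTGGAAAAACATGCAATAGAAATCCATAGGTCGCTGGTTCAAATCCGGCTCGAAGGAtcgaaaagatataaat

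The microRNA genes that were nearest to a peak on 2L and 3R are shown by the mature RNA from the 3′ side of their hairpin, written in DNA letters, with the seed (bases 2 to 8), which pairs with target messages, in capitals. Their positions are chr3R:21622504-21622524 on the − strand (mir-11), chr2L:8258623-8258645 on the − strand (mir-2b-1), chr3R:10100080-10100102 on the + strand (mir-277), chr3R:10091181-10091204 on the + strand (mir-317) and chr3R:25646560-25646581 on the + strand (mir-92a). The first pair shares its seed, and the other RNAs each have a seed of their own.
mir-11: cATCACAGtctgagttcttgc
mir-2b-1: tATCACAGccagctttgaggagc
mir-277: tAAATGCActatctggtacgaca
mir-317: tGAACACAgctggtggtatccagt
mir-92a: cATTGCACttgtcccggcctat

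The signal of a peak is the authors' value from their peak caller, on a scale of its own in each list, so peaks are ranked here only within a list. The pooled signal of the 177 peaks ran from 31.7 to 403, with a median of 44.1. The median was 47.3 over the 1160 autosomal peaks whose nearest start within 500 bp was protein-coding, and 42.4 over all 3854 autosomal peaks. Most of the 177 were weak: 16 of them, or 9.04%, had a deposited q-value no higher than 0.05 (95% Wilson interval of the share 5.64 to 14.2), where all autosomal peaks gave 6.85%. Those 16 were the peaks from tRNA:Ser-TGA-2-1 down to lncRNA:CR44331. At lncRNA:CR44024, the peak with the lowest signal, the q-value was 0.960. Because the list holds background too, peaks with high q-values may be background. Wilson intervals here cover counting error only, and the sources used here give no read depth.

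**Figure D1:**
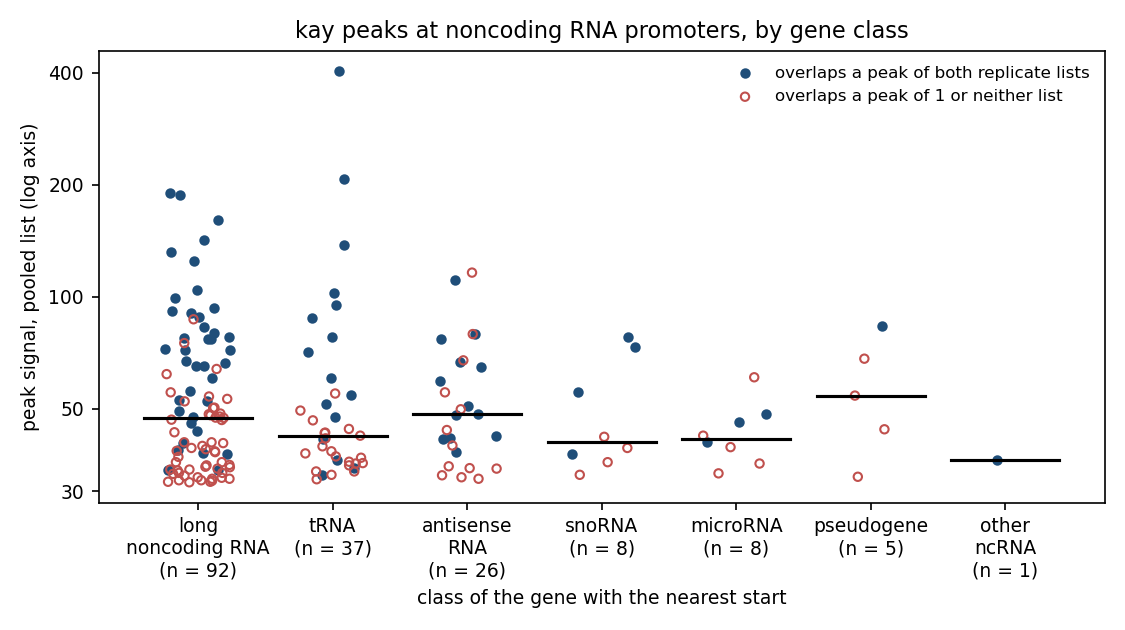
Each point is 1 of the 177 peaks, with its signal in the pooled list on a log axis and the class of its nearest gene below; black bars are medians. Filled points overlap a peak in the lists of both replicates and open points in 1 or neither; the peak of tRNA:Ser-TGA-2-1, at 403, stands apart at the top.

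The highest peak lay at tRNA:Ser-TGA-2-1, a serine tRNA gene, with a pooled signal of 403 and its summit 88 bp upstream of the gene (chr2R:23072383-23072616). It ranked 34 of all 4350 pooled peaks, 37 of 2060 in replicate 1 and 35 of 13835 in replicate 3. Ranks in lists of such different lengths place a peak within its own list and show no change between flies. This peak was 234 bp wide, and the other 176 were each 420 bp wide. The peak beside tRNA:Gln-TTG-1-3 had a signal of 207 and ranked 75 in replicate 1 and 62 in replicate 3. Its summit was also 339 bp from a start of the protein-coding gene Spag1. The peak upstream of tRNA:Tyr-GTA-1-8 had a signal of 138 and ranked 91 in replicate 1 and 313 in replicate 3, with a start of CG8036 at 299 bp. These 3 were the tRNA peaks that overlapped the authors' optimal list of 199 peaks.

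The highest peaks at long noncoding RNAs lay at genes known only by a number or for the microRNA they hold. lncRNA:CR44651, outside protein-coding genes and 1840 bp from the nearest protein-coding start, had a signal of 190 and ranked 77 in replicate 1 and 101 in replicate 3. lncRNA:CR43651, which spans mir-14, a microRNA that restrains cell death and shapes fat metabolism, had a signal of 187 and ranked 98 and 78. lncRNA:CR45393, with a GAGA site 26 bp from the summit, had a signal of 161 and ranked 121 and 108. lncRNA:CR31044, which spans mir-279 and mir-996, microRNAs that act in sensory neuron fate, had a signal of 142 and ranked 102 and 174. All of these also overlapped a peak of the optimal list, and each had a q-value of at most 0.05 in both replicates.

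lncRNA:Hsromega, the heat shock RNA omega that builds nuclear omega speckles, had a peak of signal 132 whose summit was 15 bp upstream of its start (chr3R:21295902-21296321). This peak ranked 330 in replicate 1, with a q-value of 0.126, and 103 in replicate 3, with a q-value of 0.00243. The GAGA site in the sequence shown above was 16 bp from the summit. Other peaks of the gene lay 233 bp and 304 bp downstream of a start, with signals of 45.7 and 43.2. The first of these shared its replicate peaks with the main one, so both rest on the same enrichment, while the last overlapped no peak of replicate 1.

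Other peaks stood in or near protein-coding genes of known function. lncRNA:CR44331 is read against puc from inside its intron, and puc encodes the phosphatase that restrains the Jun kinase pathway and is a textbook target of AP-1. The peak of lncRNA:CR44331 had a signal of 93.4 and ranked 241 in replicate 1 and 727 in replicate 3. lncRNA:CR44285 had a signal of 104 and ranked 278 and 326, and its summit was 66 bp from a start of GstT1, a glutathione transferase. Its own start was 52 bp away, so the peak cannot be assigned to either promoter. tRNA:Val-AAC-2-1, in an intron of hts, the fly adducin gene, had a signal of 102 and ranked 491 and 284. lncRNA:CR44868, in an intron of beat-Ib, had a signal of 99.1 and ranked 198 and 251.

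Among antisense RNA genes the highest peak was at asRNA:CR45865, with a signal of 116 and an AP-1 site 17 bp from the summit. It ranked 797 in replicate 3, with a q-value of 0.125, and overlapped no peak of replicate 1, although it did overlap the optimal list. asRNA:CR44179 had a peak of signal 111 that ranked 332 in replicate 1 and 259 in replicate 3, and a second peak of signal 64.5 over the same replicate peaks. The AP-1 site shown for this gene belongs to its second, weaker peak. asRNA:CR46058, on the strand opposite CG6125, had a signal of 79.5 and ranked 208 and 2416.

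The 25 highest peaks also included that of lncRNA:CR46006, at 125, and a second peak of lncRNA:CR43651, at 91.2, that lay on the same replicate peaks as the first. The other 8 had signals from 79.6 to 94.9 and were at tRNA:Leu-AAG-1-1, tRNA:Arg-CCT-1-3, lncRNA:CR43459, lncRNA:CR42719, lncRNA:CR9162, Cyp6a15Psi, lncRNA:CR45748 and lncRNA:CR45354. lncRNA:CR9162 overlapped no peak of replicate 1, and the others of these 8 overlapped peaks of both replicates. Cyp6a15Psi, a pseudogene of the cytochrome P450 family, had a signal of 83.4, ranked 1587 in replicate 1 and 298 in replicate 3, and carried a forkhead site, TGTTTAC, 51 bp from the summit.

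Long noncoding RNA genes that hold microRNAs recurred among the peaks. Over all autosomal long noncoding and antisense RNA genes, 35 spanned a microRNA gene on their own strand, and 10 of these, or 28.6%, had a pooled summit within 500 bp of a start. Of the 2109 that spanned none, 116 did, or 5.50%. Among the 10 host genes, asRNA:CR17025 and asRNA:CR46354 share a start and mir-252, so the same summit counts for both. The gene groups differed in length, with medians of 6436 bp and 704 bp, and had the same median of 1.00 starts per gene. This grouping was chosen after the peaks were seen and was not tested.

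These host genes were the nearest gene of 14 of the 177 peaks, at 9 genes that together span 11 microRNA genes. In 11 of the 14 the summit lay upstream of the start of the host RNA. All 14 overlapped a peak of replicate 3 and 9 overlapped one of replicate 1, while 1 held an AP-1 site. lncRNA:CR43626 (mir-282), with a signal of 38.2 and its summit 475 bp downstream, was the 1 host with no upstream summit.

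lncRNA:CR46006, which spans mir-276a, a microRNA needed for memory, had peaks at 2 of its starts. The first had a signal of 125, ranked 195 in replicate 1 and 178 in replicate 3, and lay 240 bp upstream. The second had a signal of 77.5, ranked 440 and 871, and lay 228 bp upstream. lncRNA:CR43459 spans mir-277, which acts on the breakdown of branched-chain amino acids, and mir-34, which protects the ageing brain. Its peak had a signal of 90.1, ranked 974 in replicate 1 and 328 in replicate 3, and lay 296 bp upstream. The peak of lncRNA:CR43314, which spans mir-bft (bereft), had a signal of 66.3, ranked 986 and 1704, and held both an AP-1 site, 19 bp from the summit, and GAGA letters.

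lncRNA:CR43650 spans mir-8, the fly member of the family of mammalian miR-200 and a regulator of growth. Its peaks, with signals of 61.9 and 40.6, ranked 639 and 1595 in replicate 3 and overlapped no peak of replicate 1. asRNA:CR17025, which spans mir-252, had a signal of 33.1, ranked 2296 in replicate 3 and overlapped no peak of replicate 1. Host genes without a member peak included lncRNA:let7C, which holds mir-let7, mir-100 and mir-125, as well as lncRNA:iab8 and lncRNA:CR43334, which holds mir-ban (bantam). For lncRNA:CR43334 a peak with a signal of 102 lay 503 bp from a start, just outside the rule.

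Several of these hosts gathered more than 1 peak. Around lncRNA:CR43651 and mir-14, 4 peaks lay within 1631 bp, and around lncRNA:CR43417, lncRNA:CR43650 and mir-8, 4 lay within 11994 bp. Between mir-317 and mir-277, 3 peaks lay within 8321 bp, with that of lncRNA:CR43459 the highest. A further 3 peaks lay at lncRNA:CR44867 and lncRNA:CR44868 within 1300 bp, and 3 at asRNA:CR44297 and lncRNA:CR44298 within 904 bp. Peaks at 1 locus are not independent: 32 of the 177 overlapped another of them, leaving 161 distinct intervals, and 19 genes were nearest to more than 1 peak.

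Of 73 autosomal microRNA genes in a list of named microRNAs, 8 had a summit within 500 bp, and 7 of these were the nearest gene of a peak. Over all 202 autosomal microRNA entries the count was 8, or 3.96% (Wilson interval 2.02 to 7.62), against 8.99% of autosomal protein-coding genes. The peaks nearest to a microRNA gene were weak, with signals from 33.5 to 60.7 and none with a q-value of at most 0.05. mir-14 had the highest, with signals of 60.7 and 42.3 and ranks of 1121 and 749 in replicate 3, and neither peak overlapped one of replicate 1. mir-8 had a signal of 48.4 and ranked 1613 in replicate 1 and 5097 in replicate 3.

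mir-277 had a signal of 45.9 and ranked 726 in replicate 1 but 11073 in replicate 3. mir-2b-1, in an untranslated exon of Btk, a tyrosine kinase gene, had a signal of 40.7 and ranked 1160 and 5434. mir-11, in an intron of E2f1, the cell cycle factor, had a signal of 35.6, and mir-998 in the same gene was within 500 bp but not nearest. mir-317 had a signal of 39.4 and mir-92a, in an untranslated exon of jigr1, had 33.5. Of these 3 nearest genes, mir-11 and mir-317 overlapped a peak of replicate 3 only and mir-92a one of replicate 1 only. mir-11 and mir-2b-1, which share a seed, lie on different chromosomes.

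The 37 tRNA peaks lay at 36 tRNA genes of 16 of the 22 isotypes, the classes of tRNA by the amino acid they carry with initiator methionine and selenocysteine counted apart. Leucine, which has the most autosomal genes, 22, had 6 peaks, and the peaks at tRNA:Leu-AAG-1-1 among them overlapped each other and lay on the same replicate peaks. A summit was within 500 bp of 7 of the 22 leucine genes, 7 of 19 glutamate genes and 4 of 8 tyrosine genes. No pooled summit lay within 500 bp of any of the 20 glycine, 17 threonine, 7 cysteine, 5 histidine or 6 initiator methionine genes, or of the 1 selenocysteine gene, on the autosomes. The signal of tRNA peaks ran from 32.3 to 403 with a median of 42.3. Of the 37, 19 overlapped a peak of replicate 1 and 34 one of replicate 3.

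The summits of tRNA peaks lay beside the genes more often than in them. In 16 of 37 the summit was upstream, in 16 it was past the gene's end, and in 5 it was inside. Letters of the B box, GTTCGANTC, stood in the nearest gene of 12 of 37 and in 97 of all 266 autosomal tRNA genes, or 36.5%. In those 12 the box lay between 7 and 398 bp from the summit, with a median of 154 bp. Within 100 bp of the summit it was found for 2 of 37, and within 200 bp for 10 of 37, or 27.0%. Windows of 201 bp on all 266 tRNA starts held it in 35.0%, but these are centred on the gene, while a summit can lie up to 500 bp away, so the shares cannot be compared.

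Of all autosomal tRNA genes, 56 of 266, or 21.1% (Wilson interval 16.6 to 26.3), had a pooled summit within 500 bp, where protein-coding genes gave 1056 of 11749, or 8.99% (8.48 to 9.52). The 56 genes rest on 39 summits, since tRNA genes stand in clusters: 21 of the 37 tRNA peaks had at least 2 tRNA genes within 1000 bp. The excess over protein-coding genes depended on the list. In replicate 1 it was 11.7% (8.33 to 16.1) against 5.35%, and over all peaks of replicate 3 it was 32.3% (27.0 to 38.2) against 22.2%. In the 2060 highest peaks of replicate 3 it was 8.27% (5.53 to 12.2) against 7.38%, with overlapping intervals, and in the 2060 highest pooled peaks 8.65% (5.83 to 12.6) against 5.80%.

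Many tRNA genes are exact copies of each other. Of the 36 genes nearest to a peak, 25 had an identical copy elsewhere on the autosomes, as had 220 of all 266 tRNA genes. How reads that match several copies were placed is not stated in the sources used here, and its part in these peaks was not tested.

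**Figure D2:**
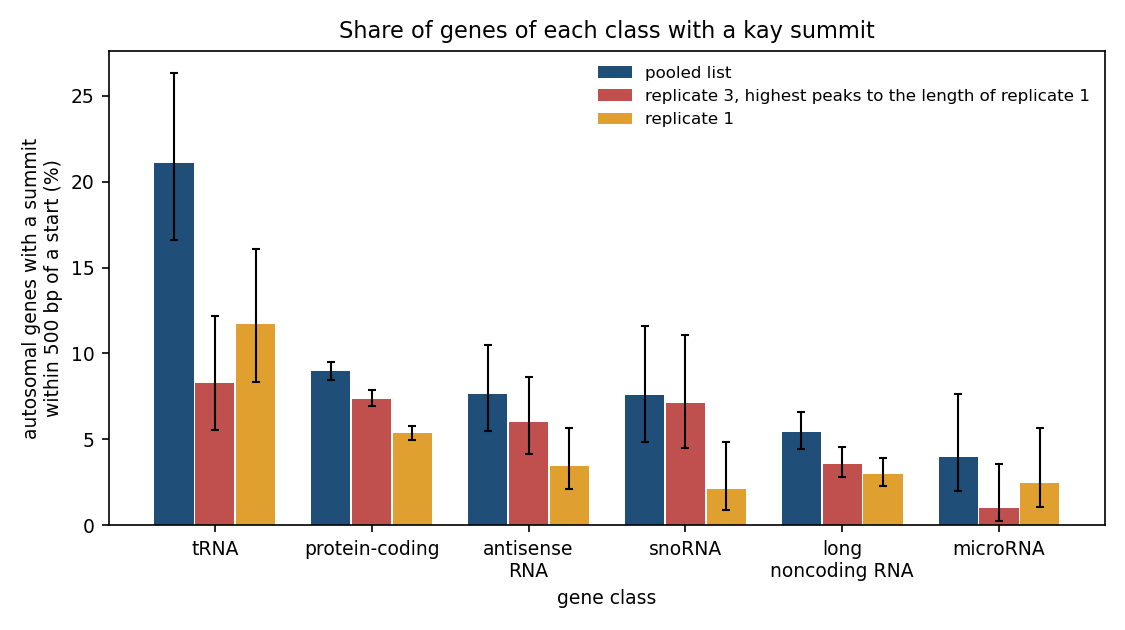
Bars give the share of autosomal genes of each class with a kay summit within 500 bp of a start, in the pooled list, in the 2060 highest peaks of replicate 3 and in replicate 1; error bars are 95% Wilson intervals. tRNA genes gave 21.1% in the pooled list but 8.27% in the highest peaks of replicate 3, near the 7.38% of protein-coding genes there.

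Few other annotated genes of RNA polymerase III or small nuclear RNA genes had a summit within 500 bp. Of 106 other genes read by RNA polymerase III, such as those of 5S ribosomal RNA, U6 and 7SK, 1 had a summit within 500 bp, or 0.943%. It was RNaseMRP:RNA, whose peak had a signal of 36.4, ranked 875 in replicate 1 and 11318 in replicate 3, and lay 497 bp from the start in an intron of CG10365. None of 23 small nuclear RNA genes read by RNA polymerase II had one. The annotation holds 96 ribosomal RNA genes on the autosomes, and none of those had one. The genes of 5S ribosomal RNA are in this count and in that of the 106, so the counts are not separate evidence. How many of the genes in these counts are copies of each other was not examined, nor was how reads were placed on such copies. The counts are therefore of annotated genes, not of separate loci. Of 15 known long noncoding RNAs, lncRNA:Hsromega and lncRNA:sphinx, a young gene tied to male courtship, had a summit within 500 bp, or 13.3%. The peak of lncRNA:sphinx had a signal of 32.7, ranked 2822 in replicate 3 and overlapped no peak of replicate 1.

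Of the 8 peaks nearest to a snoRNA gene, 7 lay inside protein-coding genes. snoRNA:Psi18S-525a, in an intron of Arpc2, a part of the complex that branches actin filaments, had the highest signal, 77.9, and ranked 344 in replicate 1 and 798 in replicate 3. Its AP-1 site was 53 bp from the summit. snoRNA:185 had a signal of 73.0 and ranked 1023 and 458, and snoRNA:Me18S-A28a had 55.5 and ranked 1472 and 2112. Other snoRNA peaks lay in lola, a gene for a transcription factor, RpS3A, a ribosomal protein gene, and Rbfox1, a splicing factor gene, with signals of 39.2, 37.7 and 35.9. Over all snoRNA genes, 18 of 238, or 7.56% (4.84 to 11.6), had a summit within 500 bp. These genes rest on 11 summits, of which 2 also lay within 500 bp of a protein-coding start.

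After Cyp6a15Psi, the pseudogene peaks with the highest signals were at CR42875, with 68.1, and CR43687, with 54.2, and neither overlapped a peak of replicate 1. CR42875 also lay within 500 bp of a start of CG10068. For long noncoding RNA genes as a class, 93 of 1711, or 5.44% (4.46 to 6.61), had a pooled summit within 500 bp, and for antisense RNA genes 33 of 433, or 7.62% (5.48 to 10.5). Both values lay below the 8.99% of protein-coding genes, and the interval of the second included it. The long noncoding genes rest on 111 summits, of which 28 also lay within 500 bp of a protein-coding start. The antisense genes rest on 36, of which 13 did. No class was tested against another.

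Summits lay on both sides of the start. Over all 177, 108 summits, or 61.0% (53.7 to 67.9), were upstream of the start, and 55, or 31.1%, were within 100 bp of it, as were 31.0% of the protein-coding promoter peaks. Upstream summits made up 62 of 92 at long noncoding RNA genes, 19 of 26 at antisense RNA genes and 16 of 37 at tRNA genes. With upstream negative, the median position was −97.0 bp for long noncoding RNA genes, −164 bp for antisense RNA genes and 60.0 bp for tRNA genes. At the edge of the rule, RNaseMRP:RNA at 497 bp, lncRNA:CR31647 at 496 bp and CR45033 at 494 bp were just inside, with signals of 36.4, 31.8 and 44.0. Peaks of lncRNA:CR43314 at 501 bp, lncRNA:CR43334 at 503 bp and lncRNA:CR44331 at 512 bp were just outside, with signals of 53.4, 102 and 122.

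**Figure D3:**
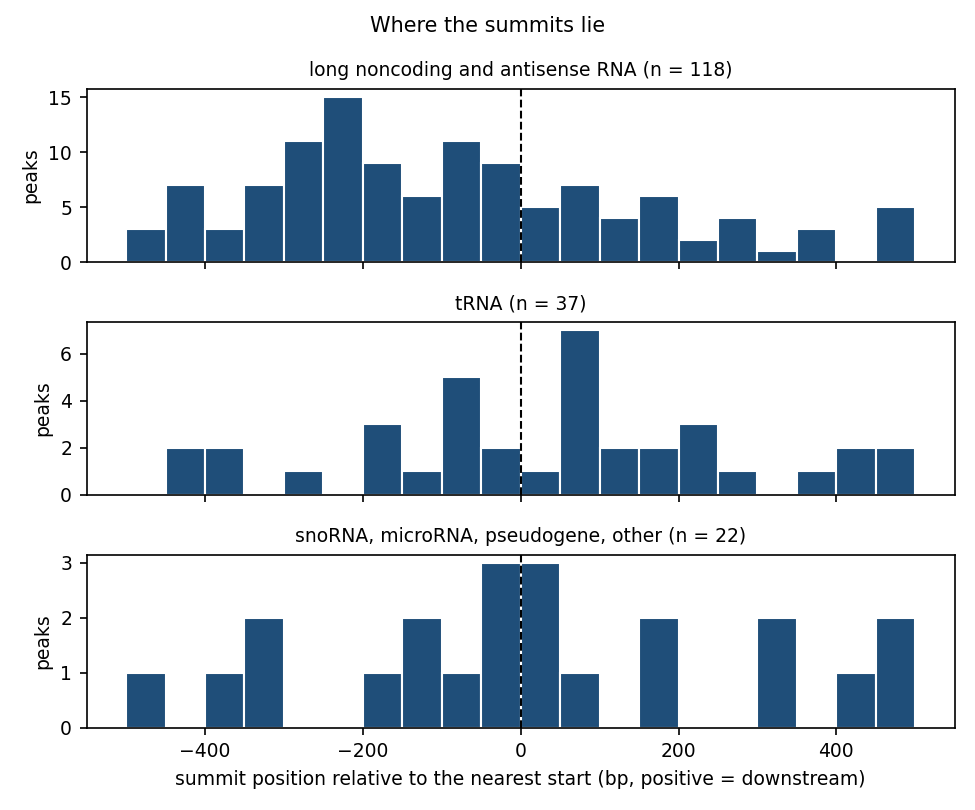
Histograms give the number of peaks by the position of the summit relative to the nearest start in bins of 50 bp, with negative values upstream, for 118 peaks at long noncoding and antisense RNA genes, 37 at tRNA genes and 22 at the other classes. Summits at the first group are mostly left of 0, and those at tRNA genes lie on both sides.

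Many of these promoters stand close to protein-coding genes. A protein-coding start was also within 500 bp of 18 of the 177 summits, or 10.2% (6.53 to 15.5), and 87 summits lay inside a protein-coding gene. Of these 87, 55 were at noncoding genes on the opposite strand. Of the 177, 69 were in introns, 17 in untranslated exons, 1 in a coding exon and 90 outside protein-coding genes. At lncRNA:CR46393 and cry, the circadian photoreceptor gene, a noncoding and a protein-coding start were equally far from a summit of signal 73.6, at 273 bp. That peak was not counted as noncoding, nor was one at asRNA:CR44843 and CG34039. By arm, 2R held 54 of the 177, or 7.08% of its autosomal peaks (5.46 to 9.12). The other arms had 42 on 2L, 32 on 3L, 41 on 3R and 8 on 4, between 3.41% and 4.40% of their peaks. The number of noncoding starts on each arm was not set beside these shares, and peaks that overlap are each counted. Differences between arms were not tested.

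Sequence and list overlap were compared with those of the 1160 protein-coding promoter peaks by 8 two-sided Fisher's exact tests with Benjamini-Hochberg adjustment, which treat each peak as a draw of its own and carry no information on how flies vary. None reached an adjusted p of 0.05, and the lowest unadjusted p was 0.0853. Of 177 peaks, 11, or 6.21%, held an AP-1 site at most 100 bp from the summit (3.51 to 10.8), and in 6.29% of protein-coding promoter peaks, where all autosomal peaks gave 5.53%. The difference was −0.0784 percentage points (Newcombe interval −3.20 to 4.66, adjusted p = 1.00 by Fisher's exact test). In the 2060 highest peaks of replicate 3 the share was 9.80% against 8.40%, and in replicate 1 it was 8.99% against 8.17%. Windows of the same length centred on all autosomal noncoding starts held the site in 2.13%, and on protein-coding starts in 1.66%. These windows, here and for the motifs below, are centred on starts, while a summit can lie up to 500 bp away. Their shares cannot be compared with those at peaks.

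The 11 AP-1 sites were at asRNA:CR45865, tRNA:Leu-AAG-1-1, tRNA:Arg-CCT-1-3, snoRNA:Psi18S-525a, lncRNA:CR43314, lncRNA:CR45793, asRNA:CR44179, lncRNA:CR46015, tRNA:Glu-CTC-3-9, lncRNA:CR43417 and lncRNA:CR44276. Of the 44 highest peaks, 5 held one, and of the next 44 peaks 4 did, while the 2 lower groups, of 44 and 45 peaks, held 1 each. The peaks of asRNA:CR45865 (17 bp), tRNA:Glu-CTC-3-9 (17 bp) and lncRNA:CR43314 (19 bp) had the site closest to the summit. tRNA:Glu-CTC-3-9, in an intron of Ptp61F, a phosphatase gene, had a signal of 47.4 and ranked 1480 in replicate 1 and 5944 in replicate 3. lncRNA:CR45793, in an intron of Hph, the oxygen-sensing hydroxylase gene, had 64.9 and ranked 821 and 642. lncRNA:CR46015 had 55.3, ranked 1369 in replicate 3 and overlapped no peak of replicate 1.

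GAGA letters stood at 7 of 177 peaks, or 3.95% (1.93 to 7.94), against 7.76% of protein-coding promoter peaks and 5.55% of all autosomal peaks. The difference was −3.80 points (−6.44 to 0.419, adjusted p = 0.602 by Fisher's exact test). This direction did not hold in the lists of the replicates. The share was 9.80% against 8.40% in the 2060 highest peaks of replicate 3 and 10.1% against 8.01% in replicate 1. Pooled peaks with a q-value of at most 0.05 are a small part of the same pooled list. Among them it was 3 of 16, or 18.8%, against 17 of 125, or 13.6%. In the pooled list the 7 were at lncRNA:CR45393, lncRNA:Hsromega, lncRNA:CR44331, lncRNA:CR42719, asRNA:CR45134, lncRNA:CR43314 and mir-14, with signals from 60.7 to 161. The letters were in 2.99% of windows at all noncoding starts and 4.54% at protein-coding starts, shares that cannot be compared with those at peaks.

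The CRE site, TGACGTCA, to which other leucine zipper factors bind, was found at 0 of 177 peaks, which allows a share of up to 1.69% by the limit of 3 counts and 2.12% by the Wilson interval, where all autosomal peaks gave 0.649% and protein-coding promoter peaks 0.862% (adjusted p = 0.602, Fisher's exact test). Windows at all noncoding starts held it in 0.188%. The DRE site, TATCGATA, a core promoter motif, was found at 2 peaks, those of lncRNA:CR45596 and the pseudogene CR14117, or 1.13%, against 2.76% at protein-coding promoters and 1.45% of all autosomal peaks (adjusted p = 0.602, Fisher's exact test). It stood in 1.05% of windows at all noncoding starts and in 5.83% at protein-coding starts. The forkhead site was found at 11 peaks, or 6.21%, against 8.28% at protein-coding promoters and 8.38% of all autosomal peaks (adjusted p = 0.608, Fisher's exact test). In windows at all noncoding starts it stood in 4.76%. None of these shares in windows on starts can be compared with those at peaks. A match is a run of letters in a window, and its absence says only that these letters are not there.

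**Figure D4:**
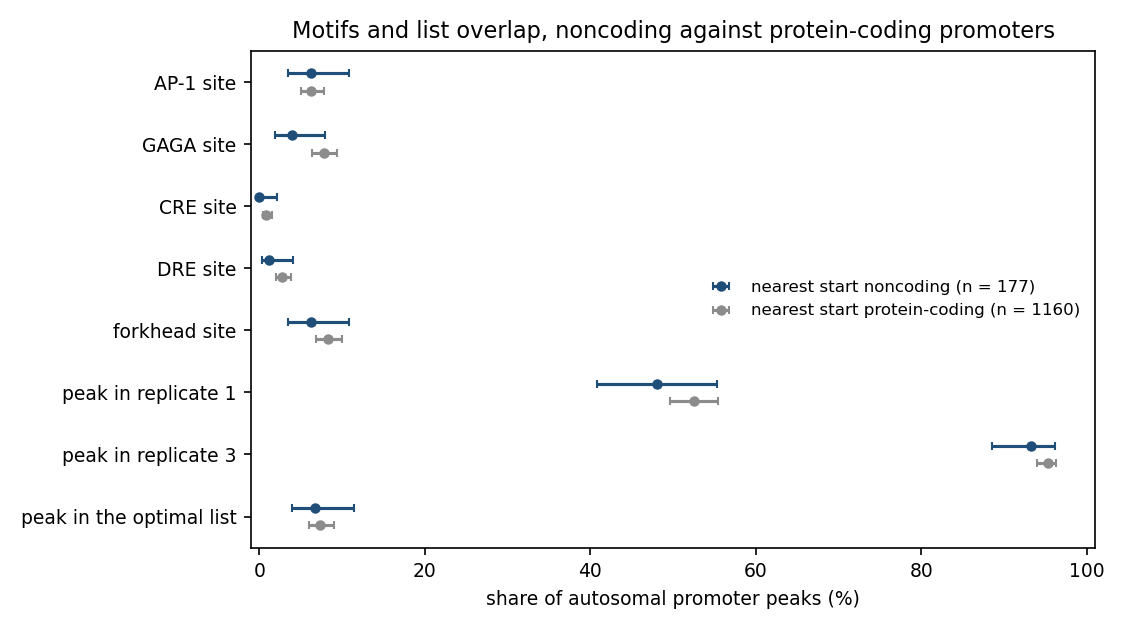
Points give the share of the 177 noncoding (dark) and 1160 protein-coding (grey) promoter peaks with each motif within 100 bp of the summit, or with an overlapping peak in another list, with 95% Wilson intervals. The intervals overlap in every row, and the largest gap of a motif is that of the GAGA site, 3.95% against 7.76%, which had the opposite sign in the list of each replicate.

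Of the 177 peaks, 85 overlapped a peak of replicate 1, or 48.0% (40.8 to 55.3), against 52.5% of protein-coding promoter peaks and 43.5% of all autosomal peaks. The difference was −4.48 points (−12.3 to 3.39, adjusted p = 0.602 by Fisher's exact test). For replicate 3 the count was 165, or 93.2% (88.5 to 96.1), against 95.3% and 94.0%, with a difference of −2.04 points (−6.86 to 1.14, adjusted p = 0.602 by Fisher's exact test). The pooled list was made from both replicates, and the list of replicate 3 is the longer one, so these overlaps are no independent repeat. Both lists held 77 of the 177 peaks and neither held 4, which were at asRNA:CR44019, lncRNA:CR31647, lncRNA:CR44161 and lncRNA:CR44024. The optimal list overlapped 12, or 6.78%, against 7.33% and 5.11% (adjusted p = 1.00, Fisher's exact test), and these include weaker peaks of lncRNA:CR43651 and lncRNA:Hsromega that touch the optimal peak of a higher neighbour. The other 10 are the 10 highest of the 177 peaks.

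Overlap with replicate 1 followed the pooled signal. It was 38 of the 44 highest peaks, with signals from 66.3 up, and 23 of the next 44. It was 17 of the following 44 and 7 of the 45 lowest, with signals of at most 35.9. In replicate 3 the counts were 44, 41, 41 and 39. Over the 77 peaks in both lists the signals in the replicates had a Spearman's rho of 0.674 across peaks, given as a description, since a peak high in the pooled list is high in at least 1 replicate. In replicate 1, 8 of the 177 overlapped a peak with a q-value no higher than 0.05. In replicate 3, 29 did, and the 8 were among the 29. Pooled peaks that share a replicate peak, such as those of lncRNA:CR43651, are each counted and enter the rho with the same values. These counts and the rho therefore rest on fewer replicate peaks. The same share over all autosomal peaks was not computed.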

How the data were processed

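Peaks of kay-GFP ChIP-seq were taken from 4 deposited dm6 lists: 1 per replicate, 1 on both pooled and an optimal list after an irreproducible discovery rate (IDR) step. The pooled list is labelled as peaks and background, the input of the IDR step. Each of the 4 lists was called with 1 control file, per the deposited listing. The lists give the authors' peak signal, with a scale of its own per list, and the authors' −log10 q-value, here turned into q-values. The columns for p (always −1) and score (always 0) were not used. The sources used here do not give the aligner, the peak caller with its settings or the threshold of the IDR step. Lists on dm3 were not used. No columns of other samples were present. No peak ran past a chromosome end of the Release 6 genome.

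Summits were assigned to starts of the Ensembl annotation (release 115). Mature microRNA entries were joined to their gene through RefSeq. Motifs were sought on either strand up to 100 bp from each summit, and overlap meant at least 1 bp. Python 3.11.15 with numpy 2.4.6, pandas 2.3.3, scipy 1.17.1 and matplotlib 3.10.9 was used. The assignment of starts, the motif search and Fisher's exact test were run on simulated data with a planted difference. No case without a difference was simulated.

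Named genes are the 25 highest peaks, the 3 highest of each class, members of 5 gene lists and the highest peak with each motif. Others, such as the host genes of microRNAs, were chosen after their values were seen. The peaks and lists were chosen with earlier results of these data known.

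Alternatives were other distances, motif windows and overlap rules, other peak lists, and each replicate's own list (replicate 3 cut to its 2060 highest peaks). Those for the share of tRNA genes were chosen after seeing the data.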

Additional observations from a re-analysis of the deposited data

How the results depend on the processing

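Of 85 alternatives, 63 were of the 8 tests. None of these had an adjusted p of at most 0.05 (lowest 0.179, Fisher's exact test), and 3 had an unadjusted p under 0.05. The AP-1 difference turned positive, to 0.625 points, when peaks near a protein-coding start were left out. It was also positive, 0.816 to 1.41 points, over lists without one of the replicates. In its other alternatives it stayed negative, down to −5.10 points among peaks with a q-value of at most 0.05. There, 2 of 16 peaks held the site against 22 of 125. Over lists without one of the replicates the GAGA difference was 1.41 to 2.10 points. Among peaks with a q-value of at most 0.05 it was 5.15 points (3 of 16 against 17 of 125). The forkhead difference among those peaks was −12.8 points (0 of 16 against 16 of 125). It was −3.04 to 0.00748 points without one replicate, and the difference of overlap with replicate 3 was 0.0255 points at 250 bp. The cause was not tested.

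The share of noncoding promoter peaks was 2.93% at 250 bp, 6.67% at 1000 bp, 6.06% among peaks with a q-value of at most 0.05, 6.54% in the optimal list and 4.96% to 5.49% without one replicate. A protein-coding start was near 18.8%, 20.0% and 11.2% to 16.7% of them in the last 3 of these. The B box stood within 200 bp of the summit in 27.0% of tRNA peaks. Noncoding genes with a summit made up 6.78%, and 4.15% at 250 bp, 10.8% at 1000 bp and 3.44% to 4.21% without one replicate, whose lists are shorter. For tRNA genes it was 8.27% to 11.7% without one replicate and 8.65% in the 2060 highest pooled peaks. With 1 group no paired analysis was possible because there were no groups to pair. Read depth is unknown, so weak peaks cannot be weighed by it.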
